A study of Homo sapiens with 12 samples.

Results

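Polyamine metabolism was followed across 4 lines of the lymphoma cell line OCI-Ly7 (human, diffuse large B-cell type) through 9 genes that make polyamines, control their making or break them down. The genes were chosen by their role in the pathway, with earlier results on SRM and ODC1 in these data already known, and no threshold on a measured value was applied. All 9 were among the 28278 genes of the deposited count table, and 8 of them were among the 8813 genes with enough counts to be tested. MTAP was too low to be tested. Because results were known when the list was made, the calls below describe these genes, and their counts are to be read against the share of all tested genes called.

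The assay was MARS-seq, a multiplexed RNA-seq that reads transcript 3′ ends, run on 20 ng of total RNA per sample. The groups were wild type (genotype WT), a line carrying the gain-of-function change EZH2 Y646N, another labelled kmt2d-/-, and a double mutant labelled kmt2d-/- + EZH2 Y646N. All were untreated OCI-Ly7 cells, and the mutants were made by CRISPR. How many clones stood behind each line, and whether the EZH2 change was on 1 allele or both, was not given in the sources used here. A difference between clones thus cannot be told apart from the edit, and effects of a mutation named below are differences between lines. EZH2 is the methyltransferase of Polycomb repressive complex 2, and KMT2D methylates histone H3 lysine 4 at enhancers. There were 3 libraries of every line but the EZH2 mutant, which had 2, since its replicate 3 had no column in the table and was not analysed here. Whether replicates were grown as separate cultures is not stated, so p-values reflect the spread among these samples, which may be technical.

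Polyamines (putrescine, spermidine and spermine) are small positively charged molecules that bind nucleic acids and are needed for growth. Ornithine decarboxylase (ODC1) makes putrescine, and spermidine synthase (SRM) and spermine synthase (SMS) add aminopropyl groups that come from S-adenosylmethionine once AMD1 has decarboxylated it. Antizymes (OAZ1, OAZ2) bind ODC1 and send it to the proteasome, antizyme inhibitor (AZIN1) frees it, SAT1 acetylates spermidine and spermine for export or oxidation, and MTAP recycles the methylthioadenosine left over by both synthases. ODC1 and SRM are textbook targets of the transcription factor MYC, which binds the E-box CACGTG.

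Sequence before the start sites is shown for 4 members. SRM, ODC1 and SAT1 are those called with the largest fold changes in the EZH2 mutant, and SMS is the other synthase that adds aminopropyl groups. The E-box was found before 1 start site of ODC1 and the start site of SRM, and before none of the other members with an entry. The sequences come from the RefSeq promoter table (GRCh38.p14), in which 8 of the 9 members matched and ODC1 has 2 start sites. Each is read 5′ to 3′ on the gene's strand, trimmed to the stretch outside the annotated exons of the gene, with the E-box CACGTG and the CCAAT box (CCAAT, or ATTGG on the other strand) in capitals. The SRM stretch is chr1:11060025-11060268 on the minus strand, and its E-box begins 199 bases before the start site. The ODC1 stretch is chr2:10448013-10448120 on the minus strand, before the more downstream of its start sites, with the E-box 29 bases away. The SMS stretch is chrX:21940459-21940572 and the SAT1 stretch chrX:23782923-23783172, both on the plus strand.
SRM: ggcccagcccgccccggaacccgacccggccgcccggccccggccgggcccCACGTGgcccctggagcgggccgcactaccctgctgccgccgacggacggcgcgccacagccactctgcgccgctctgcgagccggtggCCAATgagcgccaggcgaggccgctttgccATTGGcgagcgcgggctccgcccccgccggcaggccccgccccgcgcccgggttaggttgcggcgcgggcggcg
ODC1: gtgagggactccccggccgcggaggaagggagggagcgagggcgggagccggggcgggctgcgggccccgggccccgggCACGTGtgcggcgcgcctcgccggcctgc
SMS: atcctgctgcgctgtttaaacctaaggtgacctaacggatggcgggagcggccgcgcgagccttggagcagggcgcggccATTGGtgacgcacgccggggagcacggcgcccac
SAT1: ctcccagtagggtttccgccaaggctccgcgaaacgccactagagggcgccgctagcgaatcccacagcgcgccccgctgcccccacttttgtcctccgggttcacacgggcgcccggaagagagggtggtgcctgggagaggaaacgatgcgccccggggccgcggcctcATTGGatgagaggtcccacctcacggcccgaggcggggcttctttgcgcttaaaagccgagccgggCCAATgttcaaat

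Of the 35116 windows of 250 bases before a start site in that table, 6.34% held the E-box, 32.0% a CCAAT box on either strand, 42.6% the GC box GGGCGG on either strand and 10.7% TATAAA on either strand. SRM had 1 E-box, 2 CCAAT boxes and 6 GC boxes in its full window. ODC1 had 1 E-box and 4 GC boxes before the downstream start site and 4 GC boxes with no E-box before the upstream one. SAT1 had 2 CCAAT boxes and no GC box, and SMS had 1 of each. These matches describe letters in a window and say nothing of binding.

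The libraries held 1118710 to 3107871 counts. All 8 B-cell markers were present, with a summed level between 13459 and 23298 CPM of the library total, while the 9 T and NK cell markers summed to at most 2.03 CPM. The 9 myeloid markers summed to between 20.6 and 33.9 CPM in wild type and between 5.64 and 17.0 CPM in the mutant lines, with CSF1R, S100A8 and S100A9 at 0 in every line, and fibroblast and epithelial markers to at most 5.69 CPM. AIF1 was the largest part of the myeloid sum in every line. It averaged 24.8 normalised CPM in wild type and 10.1, 11.6 and 3.21 in EZH2, KMT2D and double mutant. CD14 and CD68 averaged higher in EZH2 and double mutant than in wild type, at 2.76 normalised CPM or less. SAT1, the member whose fall was largest, is widely expressed, and the part of any other cell type in its levels was not tested. EZH2 mutant replicate 1 was the shallowest library. KMT2D stood at 27.2 to 44.2 normalised CPM in wild type and 34.5 to 41.1 in the line labelled kmt2d-/-, and EZH2 between 54.3 and 91.3 over all libraries, but 3′ counts outside an edited stretch do not check either label. In bulk RNA, fewer cells with a transcript and less of it per cell cannot be told apart. Values below are normalised CPM, counts of tested genes scaled to library size after TMM scaling (a factor per library that equalises the bulk of genes), and tests are quasi-likelihood tests of edgeR, Benjamini-Hochberg adjusted over all 8813 tested genes, called at an adjusted p below 0.05.

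**Figure D1:**
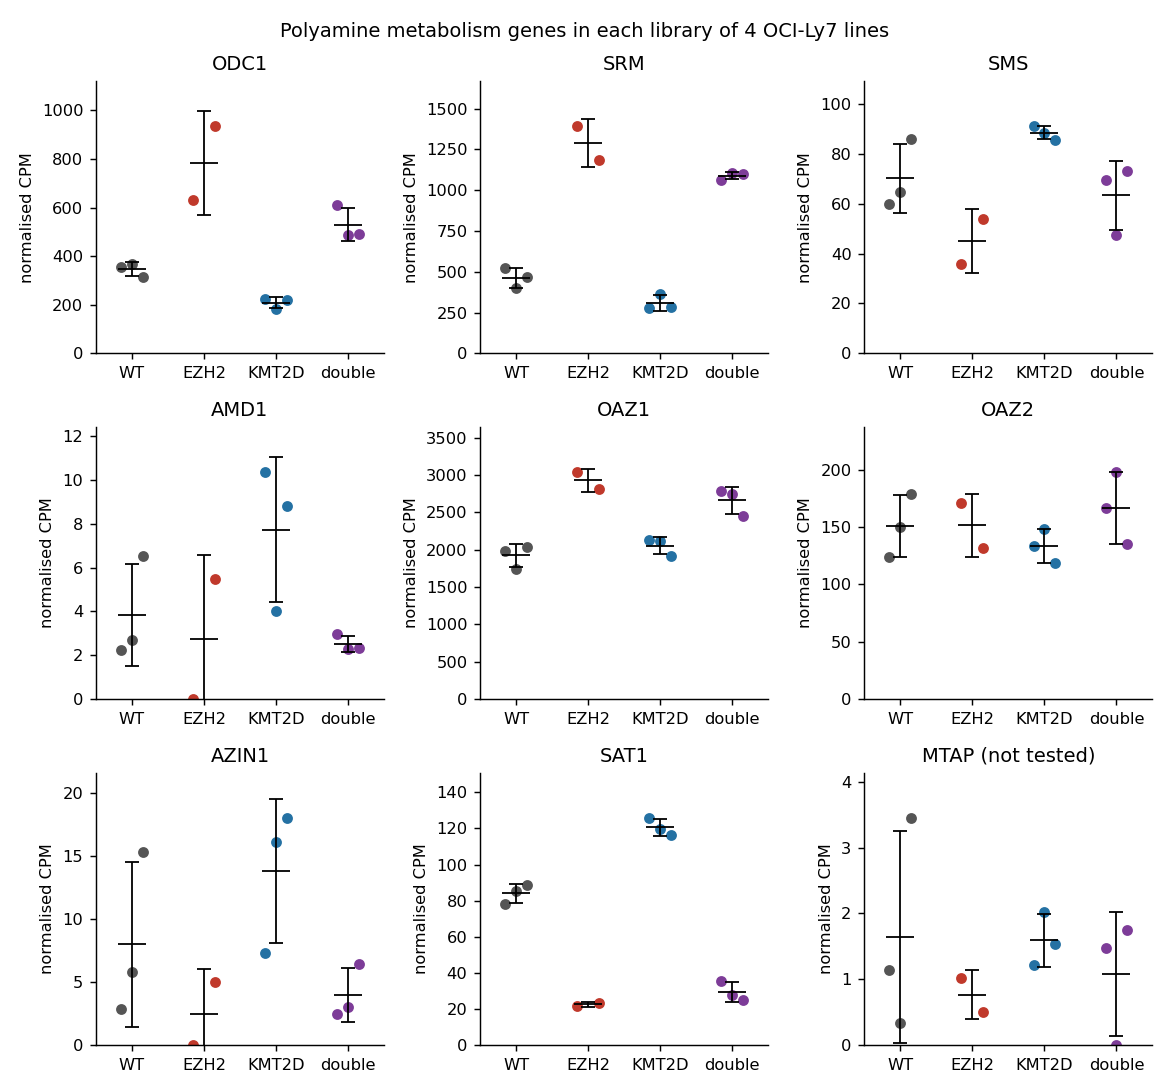
Normalised CPM (linear axes from 0) of the 9 genes in each library, by line; points are libraries, long bars means and whiskers SD, cut off at 0. SRM stands at 1064 or more in all 5 libraries with mutant EZH2 and at 523 or less in the other 6, and SAT1 at 35.5 or less against 78.1 or more.

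Among the synthesis enzymes, the spermidine synthase gene SRM rose in both lines with mutant EZH2. It stood at 523, 401 and 466 normalised CPM in wild-type libraries and 1391 and 1183 in EZH2 mutant libraries. KMT2D mutant libraries held 276, 362 and 285, and double mutant libraries 1064, 1107 and 1098. No library with mutant EZH2 overlapped a library without it, and the KMT2D mutant libraries all lay below wild type. Such separation was not counted over all tested genes, so here and below it describes levels and adds no support to a call. SRM rose by log2 1.47 (SE 0.15, adjusted p = 1.1e-06) in the EZH2 mutant and by log2 1.24 (SE 0.13, adjusted p = 2.5e-06) in the double mutant against wild type. It fell by 0.59 on the log2 scale (SE 0.13, adjusted p = 0.0082) in the KMT2D mutant, a call lost without KMT2D mutant replicate 1 (adjusted p = 0.0665) or replicate 3 (adjusted p = 0.0686). The lines thus ranked KMT2D mutant, wild type, double mutant and EZH2 mutant, and of these neighbours only the last pair was not called apart (log2 -0.24 in the double against the EZH2 mutant, 95% interval -0.55 to 0.07).

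ODC1, which encodes the enzyme that starts the pathway, had the same order of lines. Its levels were 356, 368 and 316 normalised CPM in wild-type libraries and 633 and 934 in EZH2 mutant libraries. KMT2D mutant libraries held 223, 182 and 221, and double mutant libraries 608, 488 and 492. The 4 lines did not overlap, and the EZH2 mutant libraries lay further apart than those of any other line. ODC1 rose by log2 1.18 (SE 0.16, adjusted p = 2.7e-05) in the EZH2 mutant and log2 0.61 (SE 0.15, adjusted p = 0.0050) in the double mutant, and fell by 0.73 (SE 0.15, adjusted p = 0.0036) in the KMT2D mutant. The double mutant was lower than the EZH2 mutant by log2 -0.57 (95% interval -0.90 to -0.23), which missed the threshold at adjusted p = 0.069. It passed without a filter on low counts (adjusted p = 0.0055), with DESeq2 (adjusted p = 0.049) and without EZH2 mutant replicate 1 (adjusted p = 0.011).

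SMS, which turns spermidine into spermine, went the other way in the EZH2 mutant. It stood at 60.0, 64.9 and 85.9 normalised CPM in wild-type libraries and 35.8 and 54.1 in EZH2 mutant libraries. KMT2D mutant libraries held 91.1, 88.6 and 85.8, and double mutant libraries 69.6, 47.6 and 73.2. Both EZH2 mutant libraries lay below every wild-type library, while the double mutant overlapped both of those lines. SMS fell by 0.60 (SE 0.22, adjusted p = 0.043) in the EZH2 mutant, and the call was lost in 10 of 20 alternatives, with adjusted p between 0.0105 and 0.309 and the highest without EZH2 mutant replicate 1. Without wild type replicate 3 it was 0.173, without wild type replicate 2 0.0503, and without KMT2D mutant replicate 1 or 3 0.0529 or 0.0556. No neighbours in the order EZH2 mutant, double mutant, wild type, KMT2D mutant were called apart, but the EZH2 mutant lay below the KMT2D mutant by log2 -0.93 (SE 0.22, adjusted p = 0.0022).

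AMD1, whose enzyme supplies the aminopropyl donor, was close to the detection limit of these libraries. Its counts were 4, 8 and 17 in wild type, 0 and 11 in EZH2 mutant, 34, 6 and 23 in KMT2D mutant and 6, 3 and 4 in double mutant libraries. The count of 0 in EZH2 mutant replicate 1 allows up to 3.07 normalised CPM, and such limits cover counting error only. AMD1 averaged highest in the KMT2D mutant, at 7.73 ± 3.30 normalised CPM (SD, n = 3) against 3.83 ± 2.34 (n = 3) in wild type. No mutant line was called apart from wild type (log2 1.05, 95% interval 0.03 to 2.07, adjusted p = 0.22 in the KMT2D mutant).

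**Figure D2:**
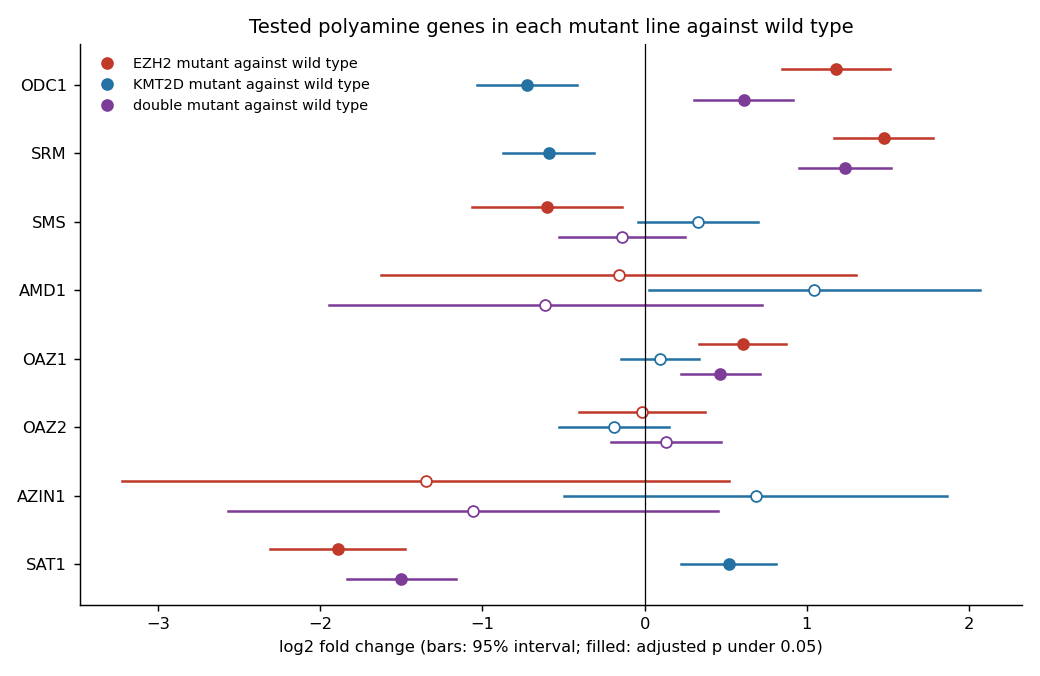
Log2 fold change of the 8 tested genes in each mutant line against wild type (x axis), with 95% intervals as bars; filled points were called. SRM, ODC1 and OAZ1 lie above 0 and SAT1 below 0 in both lines with mutant EZH2, and AMD1 and AZIN1 have the widest intervals.

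Among the regulators, the antizyme gene OAZ1 rose in both lines with mutant EZH2 and OAZ2 was called in none of the 7 comparisons. OAZ1 stood at 1983, 1747 and 2042 normalised CPM in wild-type libraries and 3037 and 2817 in EZH2 mutant libraries. KMT2D mutant libraries held 2125, 2120 and 1922, and double mutant libraries 2781, 2747 and 2455. The 5 libraries with mutant EZH2 all lay above the other 6, and wild type and KMT2D mutant overlapped. OAZ1 rose by log2 0.61 (SE 0.13, adjusted p = 0.0015) in the EZH2 mutant and log2 0.47 (SE 0.12, adjusted p = 0.0065) in the double mutant, and was at log2 0.10 (95% interval -0.15 to 0.34) in the KMT2D mutant. OAZ2, a second antizyme, ranged from 118 to 198 normalised CPM over the 11 libraries, with all 4 lines overlapping. Its log2 fold changes against wild type were -0.01 (95% interval -0.40 to 0.38) in the EZH2 mutant, -0.19 (-0.53 to 0.15) in the KMT2D mutant and 0.13 (-0.21 to 0.47) in the double mutant. Without double mutant replicate 3, OAZ2 was called higher in double than in KMT2D mutant (log2 0.45, adjusted p = 0.0456), against log2 0.32 (adjusted p = 0.12) with it.

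AZIN1, the inhibitor that competes with ODC1 for antizyme, had 187 counts in all. They were 5, 17 and 40 in wild type, 0 and 10 in EZH2 mutant, 24, 24 and 47 in KMT2D mutant and 5, 4 and 11 in double mutant libraries. The wild-type libraries alone ran from 2.83 to 15.3 normalised CPM and overlapped all 3 mutant lines. AZIN1 was not called against wild type in any line (log2 -1.35, 95% interval -3.22 to 0.52, adjusted p = 0.25 in the EZH2 mutant), but without a filter on low counts the EZH2 mutant was called (adjusted p = 0.0455). EZH2 against KMT2D mutant gave log2 -2.03 (adjusted p = 0.059), which 9 of 20 alternatives called. The antisense gene AZIN1-AS1 overlaps it and had 169 counts, and since the strand of counting was not given, their reads may not have been told apart.

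SAT1, the acetyltransferase that starts polyamine breakdown, fell in both lines with mutant EZH2. It stood at 78.1, 85.3 and 88.6 normalised CPM in wild-type libraries and 21.5 and 23.3 in EZH2 mutant libraries. KMT2D mutant libraries held 126, 119 and 116, and double mutant libraries 35.5, 27.9 and 25.0. The 4 lines did not overlap. SAT1 fell by 1.89 (SE 0.20, adjusted p = 2.2e-06) in the EZH2 mutant and by 1.50 (SE 0.16, adjusted p = 2.1e-06) in the double mutant, which are levels 3.71-fold and 2.83-fold below wild type. It rose in KMT2D mutant cells by log2 0.52 (SE 0.14, adjusted p = 0.025). That call was lost without wild type replicate 1 (adjusted p = 0.109) or 2 (0.0778), and without KMT2D mutant replicate 1 (0.137), 2 (0.0526) or 3 (0.0745). Double and EZH2 mutant were not called apart (log2 0.39, 95% interval -0.06 to 0.85).

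MTAP, of the methionine salvage pathway, had 31 counts over all 11 libraries and was not tested. Its counts were 2, 1 and 9 in wild type, 1 and 1 in EZH2 mutant, 4, 3 and 4 in KMT2D mutant and 3, 0 and 3 in double mutant libraries. Every line had some counts, and summed counts in wild type were 2.45-fold those of the EZH2 mutant per unit of depth, with a 95% counting interval of 0.55 to 22.6. A difference between lines was not detectable at this depth.

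Against wild type, 3 of the 8 tested members were higher (SRM, ODC1, OAZ1) and 2 lower (SAT1, SMS) in the EZH2 mutant, where 17.1% of all tested genes were higher and 15.1% lower. The median log2 fold change of the 8 was -0.09, beside -0.04 for all tested genes. In the KMT2D mutant 1 was higher (SAT1) and 2 lower (ODC1, SRM), beside 3.18% and 4.48% of all tested genes, and the medians were 0.21 and 0.00. That count of 3 was 1 without KMT2D mutant replicate 1 or without KMT2D mutant replicate 3, and the 675 genes called in all were then 352 and 346, and 446 without wild type replicate 1. In the double mutant 3 were higher (SRM, ODC1, OAZ1) and 1 lower (SAT1), beside 12.1% and 11.6%, and both medians were close to 0. The 2846 genes called in all in the EZH2 mutant were 1764 without EZH2 mutant replicate 1, and the 2087 in the double mutant 1374 without double mutant replicate 1. AMD1 and AZIN1 are in these counts although their intervals were wide. These 3 comparisons share the wild-type libraries. Upper-quartile scaling lowered the median gene to -0.20 in EZH2 and -0.13 in double mutant, and the share of calls that were higher went from 53.1% to 36.6% and from 51.2% to 35.6%, while the members called higher and lower stayed 3 and 2, and 3 and 1.

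Mutant EZH2 was also compared in KMT2D mutant cells, as double mutant against KMT2D mutant. This contrast uses no wild-type level, although the wild-type libraries enter the estimate of spread. Here SRM rose by log2 1.83 (SE 0.14, adjusted p = 9.1e-09) and ODC1 by log2 1.34 (SE 0.15, adjusted p = 1.3e-06), and SAT1 fell by 2.02 (SE 0.16, adjusted p = 1.7e-08). OAZ1 was called higher (log2 0.37, adjusted p = 0.015), and lower were SMS (log2 -0.47, adjusted p = 0.047), AMD1 (log2 -1.66, adjusted p = 0.026) and AZIN1 (log2 -1.74, adjusted p = 0.0499). In all, 3 of 8 members were higher and 4 lower, beside 21.2% and 20.8% of all tested genes. Without wild type replicate 2, SMS (adjusted p = 0.0558) and AZIN1 (adjusted p = 0.0534) were not called. The calls of SRM, ODC1 and SAT1 held in all 20 alternatives, and those of the other 4 members were each lost in 5 to 8 alternatives, of which AMD1 had 19 because the strict filter left it out. The count of 7 called members was 3 without KMT2D mutant replicate 3, double mutant replicate 1 or double mutant replicate 2, and 3 after removing trends with GC and abundance.

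EZH2 mutant and KMT2D mutant lay at the ends of the order of means for SRM, ODC1, SMS, SAT1 and AZIN1. SRM differed between them by log2 2.07 (SE 0.15) and ODC1 by log2 1.91 (SE 0.16), both higher in the EZH2 mutant, as was OAZ1 (log2 0.51). SAT1 was lower in the EZH2 mutant by log2 -2.41 (SE 0.20), as was SMS, given above. That made 3 members higher and 2 lower, beside 23.4% and 22.4% of all tested genes.

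Loss of KMT2D within EZH2 mutant cells called no member in either direction in edgeR's quasi-likelihood test, beside 0.715% of all tested genes higher and 1.58% lower. The 202 genes behind these shares were 101 without EZH2 mutant replicate 1, 131 without double mutant replicate 2 and 99 without double mutant replicate 3. The unadjusted p was below 0.05 for ODC1 alone, which DESeq2 also called. The interaction, which asks whether the effect of mutant EZH2 differs between cells with and without KMT2D, called no member, beside 1.5% higher and 1.52% lower of all tested genes, whose 266 calls were 151 and 155 without KMT2D mutant replicate 1 and 3 and 147 without EZH2 mutant replicate 2. It was log2 0.16 (95% interval -0.30 to 0.62) for ODC1, 0.35 (-0.07 to 0.77) for SRM, -0.13 (-0.67 to 0.42) for SAT1 and -0.23 (-0.60 to 0.13) for OAZ1. No member had an unadjusted interaction p below 0.05, and DESeq2 called none.

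**Figure D3:**
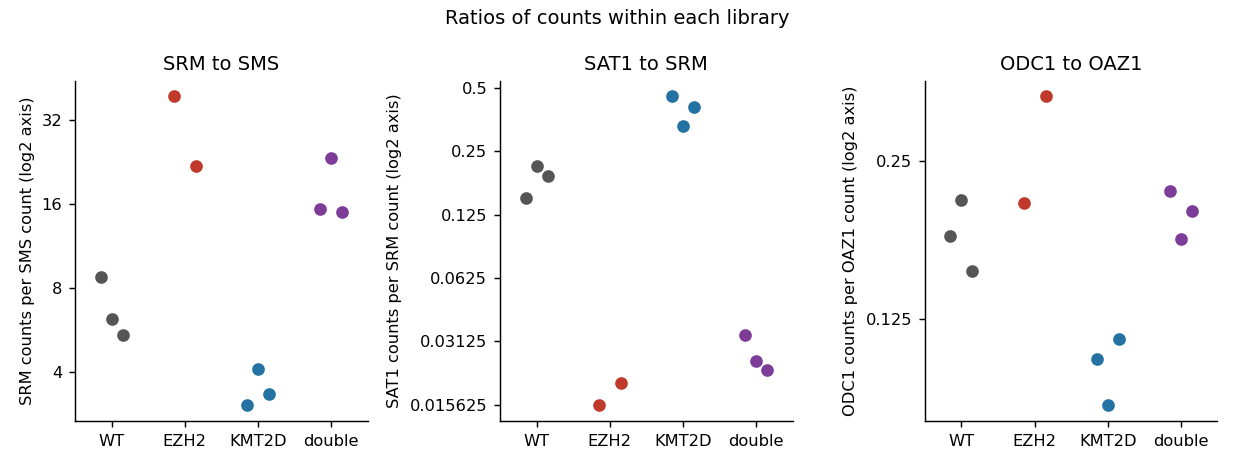
Counts of one gene per count of another within each library (log2 axes), by line. The SRM to SMS ratio lies at 14.99 or more in the 5 libraries with mutant EZH2 and at 8.72 or less in the other 6, and the SAT1 to SRM ratio at 0.033 or less against 0.149 or more.

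Ratios of 2 genes within a library do not depend on how libraries are scaled. They can still move with a library bias that depends on GC, and its part in the ratios themselves was not tested. In the fits, removing GC and abundance trends moved SMS in the EZH2 mutant from log2 -0.60 to -0.41 against wild type, which was not called. SRM stayed called there in every alternative, at log2 1.145 or more. GC of the last 500 bases was 62.8% in SRM, 34.0% in SMS and 37.2% in SAT1. It was 50.2% in ODC1, 45.4% in OAZ1 and 32.4% in AZIN1, beside a median of 44.8% for tested genes. Counts of SRM per count of SMS were 8.72, 6.17 and 5.42 in wild type, 38.8 and 21.9 in EZH2 mutant, 3.03, 4.09 and 3.33 in KMT2D mutant and 15.3, 23.3 and 14.99 in double mutant libraries. The lines with mutant EZH2 stood above the others without overlap. Counts of SAT1 per count of SRM ran from 0.149 to 0.213 in wild type, 0.015 to 0.020 in the EZH2 mutant, 0.330 to 0.456 in the KMT2D mutant and 0.023 to 0.033 in the double mutant, with no overlap between any of the 4 lines. Counts of ODC1 per count of OAZ1 separated less, and both genes rose in both lines with mutant EZH2. They were 0.155 to 0.211 in wild type, 0.208 to 0.331 in EZH2 mutant and 0.178 to 0.219 in double mutant libraries, which overlap, and 0.086 to 0.115 in KMT2D mutant libraries, below the other 3 lines. Counts of AZIN1 per count of OAZ1 overlapped between all lines except EZH2 and KMT2D mutant and double and KMT2D mutant. The ratio compares lines for a pair of genes and not the amount of one gene with another.

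Likeness of profiles was measured as the root mean square difference of gene-centred log2 CPM over the 11 libraries, among 6519 genes of at least 10 CPM. Among members, OAZ1 and OAZ2 were closest (0.26), followed by ODC1 and SRM (0.37). OAZ1 itself varied by 0.26 and OAZ2 by 0.22, so these genes differed from each other about as much as each varied. The genes nearest to SRM were VARS1, which encodes a valyl-tRNA synthetase (0.15), and IFI30 (0.16), and SRM itself varied by 0.85. Nearest to ODC1 were EIF3K, a translation initiation factor subunit (0.18), and SIGLEC10, a sialic acid-binding receptor (0.19). Nearest to SAT1 were NRN1 (0.20) and LOC100505942 (0.20), to OAZ1 KXD1 (0.06) and PHB2 (0.07), and to SMS RFK, a riboflavin kinase (0.08), and LTBP1 (0.08).

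SMS and SAT1, the members called lower in the EZH2 mutant, both lie on the X chromosome, 1.79 Mb apart in GRCh38 by GENCODE 29. The tested gene between them, PRDX4, a peroxiredoxin, was higher in the EZH2 mutant (log2 0.71, adjusted p = 0.0040). The 239 tested genes of that chromosome, SMS and SAT1 among them, had a median of -0.16 there, with 29 higher and 40 lower. All tested genes had a median of -0.04, with 17.1% higher and 15.1% lower. In the double mutant the median of the 239 was -0.06, with 15 higher and 21 lower. All tested genes then had a median of -0.01, with 12.1% higher and 11.6% lower.

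**Figure D4:**
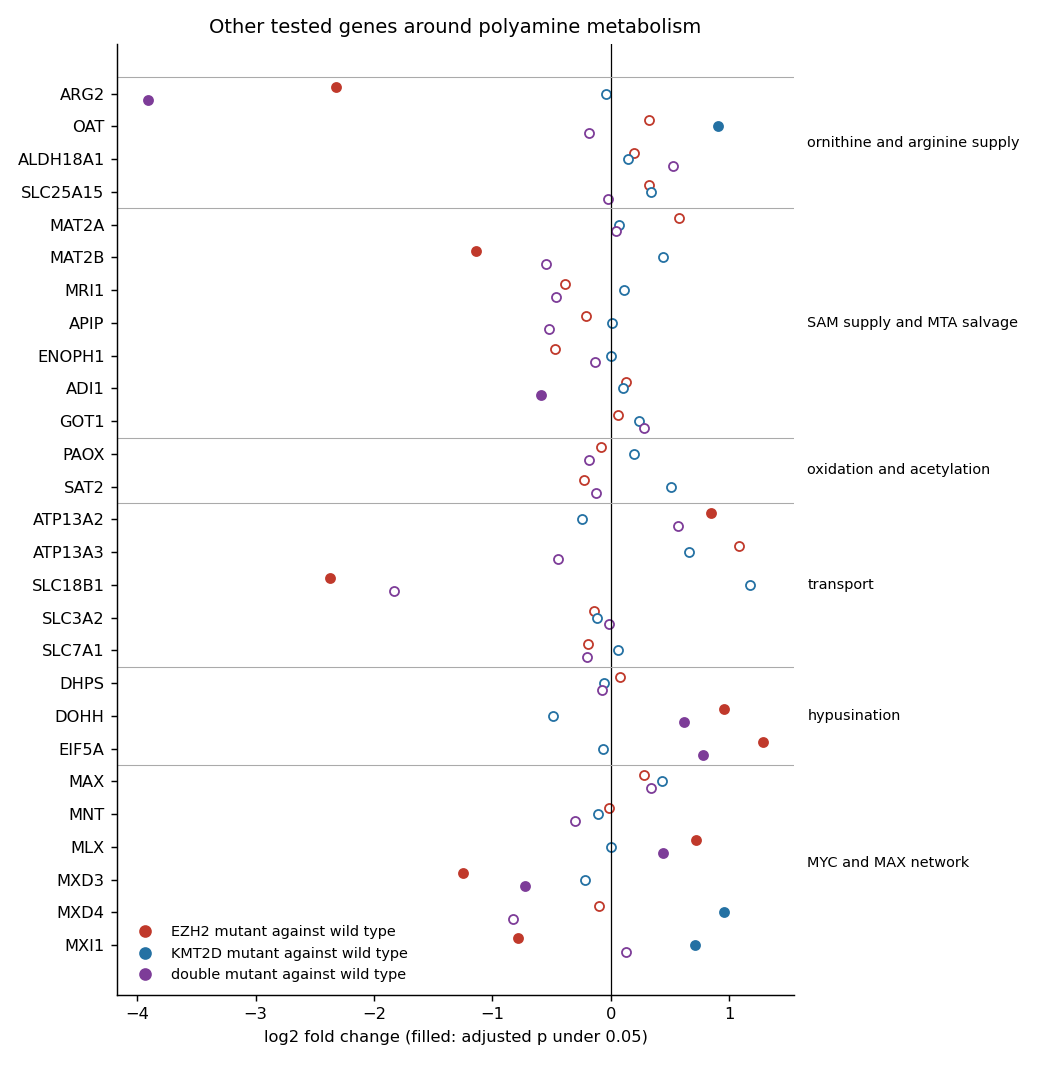
Log2 fold change of 27 other tested genes around the pathway in each mutant line against wild type (x axis), grouped by role; filled points were called. EIF5A and DOHH lie above 0 in both lines with mutant EZH2; fitted values of ARG2 and SLC18B1 rest on few counts.

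Of 45 other genes listed around the pathway, 27 were tested. In the EZH2 mutant 4 rose, 5 fell and 18 did not pass (median -0.01), beside 17.1% higher and 15.1% lower of all tested genes. In the KMT2D mutant 3 rose, 0 fell and 24 did not pass (median 0.11), beside 3.18% and 4.48%. In the double mutant 3 rose, 3 fell and 21 did not pass (median -0.13), beside 12.1% and 11.6%. In double mutant against KMT2D mutant 4 rose, 10 fell and 13 did not pass (median -0.36), beside 21.2% and 20.8%. The smaller groups below hold few genes, and their counts are read against the same shares.

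Spermidine is the substrate for hypusine, a modified lysine of the translation factor eIF5A made by DHPS and DOHH in turn. Of the 3 tested genes of this group 2 rose and 1 did not pass in the EZH2 mutant, and likewise in the double mutant, where 17.1% and 12.1% of all tested genes were higher. Wild-type libraries averaged 513 ± 85.5 normalised CPM of EIF5A (SD, n = 3), and EZH2 mutant libraries 1256 ± 260 (n = 2). KMT2D mutant cells averaged 490 ± 53.5 and double mutant cells 881 ± 194 (n = 3 each). It rose by log2 1.29 (SE 0.18, adjusted p = 7.1e-05) in the EZH2 mutant and log2 0.78 (SE 0.17, adjusted p = 0.0029) in the double mutant. Whether reads of EIF5A were shared with near-identical copies was not tested. DOHH rose by log2 0.95 (adjusted p = 0.0014) and 0.62 (adjusted p = 0.017). The gene that did not pass encodes the first enzyme of the reaction.

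Of 4 tested genes of ornithine and arginine supply, the mitochondrial arginase gene ARG2 alone fell in both lines with mutant EZH2, beside 15.1% and 11.6% of all tested genes lower. It had 9, 17 and 24 counts in wild type, 0 and 4 in EZH2 mutant and 1, 1 and 0 in double mutant libraries, a 17.3-fold fall between the summed counts of wild type and double mutant (95% counting interval 4.55 to 147). OAT, ornithine aminotransferase, rose in the KMT2D mutant (log2 0.90, adjusted p = 0.043).

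Among 7 tested genes of S-adenosylmethionine supply and methylthioadenosine salvage, 1 fell in the EZH2 mutant, MAT2B, the regulatory subunit of S-adenosylmethionine synthetase (log2 -1.14, adjusted p = 0.028), and 1 in the double mutant, ADI1 of the salvage pathway (log2 -0.59, adjusted p = 0.015), beside 15.1% and 11.6% of all tested genes lower. None passed in the KMT2D mutant. MAT2A, the catalytic subunit, was at log2 0.58 (95% interval -0.65 to 1.80) in the EZH2 mutant and was called in none of the 7 comparisons.

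The polyamine oxidase gene PAOX was at log2 -0.09, 0.20 and -0.18 in EZH2, KMT2D and double mutant and was not called. SAT2, a relative of SAT1, was lower in double than in KMT2D mutant (log2 -0.64, adjusted p = 0.0045) and was not called against wild type. SMOX, the spermine oxidase gene, was not tested, with 16 counts in 5 of the 6 libraries without mutant EZH2 and 0 in the 5 with it. Among 5 tested transport genes 1 rose and 1 fell in the EZH2 mutant, beside 17.1% and 15.1% of all tested genes. ATP13A2, a lysosomal polyamine exporter, rose by log2 0.85 (95% interval 0.27 to 1.43, adjusted p = 0.027). Its EZH2 mutant libraries stood at 64.5 and 142 normalised CPM and overlapped wild type, which ran from 47.3 to 66.2. SLC18B1, a vesicular polyamine transporter, fell from 27 counts in wild type to 2 in the EZH2 mutant (5.52-fold, 95% counting interval 1.39 to 47.9).

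Of 6 tested genes of the MYC and MAX network, 1 rose and 2 fell in the EZH2 mutant, 2 rose in the KMT2D mutant, and 1 rose and 1 fell in the double mutant. The shares of all tested genes higher and lower were 17.1% and 15.1%, 3.18% and 4.48%, and 12.1% and 11.6% in these lines. MXD3, which encodes a partner of MAX that represses E-box genes, fell by 1.25 (SE 0.19, adjusted p = 7.9e-05) and 0.72 (SE 0.16, adjusted p = 0.0027) in EZH2 and double mutant. MXI1, of the same repressor family, fell by 0.78 (adjusted p = 0.030) in the EZH2 mutant and rose by log2 0.72 (adjusted p = 0.022) in the KMT2D mutant, where MXD4 also rose (log2 0.95, adjusted p = 0.026). MXD4 was the gene of these lists called in the interaction (log2 -1.68, adjusted p = 0.049). MLX rose by log2 0.72 (adjusted p = 0.0022) and 0.45 (adjusted p = 0.030) in EZH2 and double mutant. MYC itself had 8 counts over all 11 libraries and could not be compared.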

How the data were processed

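RNA of 4 OCI-Ly7 lines was counted in 11 libraries. The deposited values are whole-number counts per gene, called corrected by the authors without saying for what. Per the submitters' processing notes, the tools were STAR 2.7.0f, cutadapt 1.15 and Trim Galore 0.6.0, beside FastQC and a DESeq2 of no stated role. The counter, its annotation and strand, and the build were not given in the sources used here. DM in a column name was read as double mutant.

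Tests used edgeR 4.0.16 in R 4.3.3, with filterByExpr by line at a minimum count of 10 and TMM factors. A robust quasi-likelihood fit had 1 term per line over all 11 libraries. It was checked on counts simulated with the spread that edgeR estimated here, which does not check that spread itself. SE is the log2 fold change over the root of F. Members and lists were chosen with earlier results of these data known. All 9 members are described, other listed genes are named when called (at most 4 per list) or when they define a list, and 2 nearest genes are taken per member (those of AMD1, OAZ2 and AZIN1 are not printed). Genes with 3 or fewer counts in a line are given by summed counts with an exact interval. Alternatives were a fit on the compared groups alone, a block on replicate number, DESeq2 1.42.0, limma-voom (limma 3.58.1), upper-quartile or RLE factors, a strict filter (5 CPM in every library of a line) or none, and each library left out in turn. Added after the data were seen was removal of GC and abundance trends (splines of 5 degrees of freedom, GC of the last 500 bases in GENCODE 29, known for 96.6% of tested genes). The main fit did not pair libraries by replicate number, and whether the numbers paired the samples was not settled. Figures used Python 3.11.15 and matplotlib 3.10.9.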

Additional observations from a re-analysis of the deposited data

How the results depend on the processing

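Of the 24 member calls over the 7 comparisons, 17 held in every alternative run, among them all calls of SRM, ODC1, OAZ1 and SAT1 in EZH2 and double mutant against wild type, and 7 were lost in at least 1. The number of called members moved by more than 1.5 times in 3 comparisons. In double mutant against EZH2 mutant it was 1 without a filter and 1 with DESeq2, and 0 to 1 when 1 library was left out. In double mutant against KMT2D mutant it was 3 with GC and abundance trends removed and 3 to 7 with 1 library left out, and in KMT2D mutant against wild type 1 to 3. Where an EZH2 mutant library was left out, the remaining one was assumed to vary like the other lines.

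No called value changed sign. Uncalled values that did were, for OAZ2, -0.033 with upper-quartile factors and -0.20 with both trends removed between EZH2 and KMT2D mutant, and -0.024 with both trends removed in the double mutant. For AMD1 they were 0.30 with limma-voom between double and EZH2 mutant, and 0.090 with the replicate block and 0.58 with both trends removed in the EZH2 mutant. For AZIN1 the interaction was 0.085 with limma-voom. With 1 library left out, log2 fold changes against wild type in the EZH2 mutant ran from -6.06 to 0.47 for AMD1 and -0.19 to 0.13 for OAZ2, and in the double mutant from -0.25 to 0.032 for SMS, -0.87 to 0.010 for AMD1 and -0.0012 to 0.27 for OAZ2. Between double and EZH2 mutant they ran from -1.09 to 5.44 for AMD1 and -0.34 to 6.06 for AZIN1. The interaction ran from -0.086 to 0.56 for SMS, -0.093 to 0.52 for ODC1, -2.13 to 4.38 for AMD1 and -1.25 to 5.37 for AZIN1. The values -6.06, 5.44, 6.06, 4.38 and 5.37 come from leaving out EZH2 mutant replicate 2, after which the library with 0 counts stands alone.

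The replicate block gave 4 called members in the EZH2 mutant against 5 without it, losing SMS (adjusted p = 0.104), and called AZIN1 between EZH2 and KMT2D mutant (adjusted p = 0.0178). Correlations of deviations between same-numbered libraries of 2 lines ran from -0.29 to 0.38, and 5 of 15 were above 0.1. Those were 0.38 and 0.22 between wild type and EZH2 mutant, and 0.29 and 0.21 between KMT2D and double mutant. The other was 0.23, between wild type and double mutant. Differently numbered libraries were not compared, so these values do not show whether replicate numbers paired the samples. The genes called in all in double against EZH2 mutant were 381 without a filter, 350 with both trends removed and 102 with the compared groups alone, against 202, and those of the interaction 482 and 477 without a filter and with both trends removed, against 266. Upper-quartile factors moved the median gene of the EZH2 mutant from -0.04 to -0.20. The share of all calls that were higher then went from 50.5% to 36.9% in double against KMT2D mutant, from 51.1% to 36.4% in EZH2 against KMT2D mutant and from 31.2% to 43.1% in double against EZH2 mutant, the last to 41.7% with both trends removed. The fit on the compared groups alone was not run for the interaction. Where no cause is given, the cause was not tested. Low counts limit AMD1, AZIN1 and MTAP, and why their counts were low was not tested.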
